A study of Homo sapiens with 30 samples.

Results

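Neuropilins and class 3 semaphorins were followed through the differentiation of human embryonic stem cells towards placode. The set holds 7 genes, namely the receptors NRP1 and NRP2 and the ligands SEMA3A, SEMA3C, SEMA3D, SEMA3E and SEMA3F, out of 18774 genes with a probe that the platform annotation gives to 1 gene. All 7 were among the 13488 genes tested, each having at least 1 probe detected (detection p under 0.05) on at least 3 arrays. NRP2 was chosen from these data, because its difference between the 2 arms of the experiment turned in sign between Day 5 and Day 11. Its values on those days, in the arm comparisons and against Day 3, are therefore given as a description with no test.

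Total RNA of H9 cells, an established embryonic stem cell line, was hybridised to 30 Illumina bead arrays. The labels give 10 groups of 3 biological replicates: Day 1 and Day 3 of differentiation, and Days 5, 7, 9 and 11 of an arm called NSB and of an arm called PIP, which the labels describe as placode differentiation. All groups share the H9 line, so nothing here speaks for another line. The labels do not spell out either arm. As background, NSB is a neural induction with Noggin and an inhibitor of the activin and TGF-beta receptors, and PIP starts in the same way and then lets BMP signalling return, a step that favours the non-neural border ectoderm from which cranial placodes form. The labels name 2 sample codes for each of 9 arrays, those of Day 3 and of both arms at Day 5, and any pooling of RNA is not given in the sources used here. The labels do not say whether the replicates came from separate cultures, so p-values measure the spread between these samples.

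Class 3 semaphorins are secreted guidance proteins. They bind neuropilins, which have short cytoplasmic tails and signal through plexin co-receptors, and they repel or attract growing axons, migrating neural crest cells and endothelial cells. NRP1 is best known as the receptor for SEMA3A and NRP2 as the receptor for SEMA3F, SEMA3C can use both, SEMA3E binds plexin D1 directly, and both neuropilins also bind VEGF proteins. In cranial development the pair guides the axons of placode-derived sensory neurons and the streams of neural crest that join them.

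NRP1 lies on chromosome 10, NRP2 on chromosome 2, SEMA3A, SEMA3C, SEMA3D and SEMA3E on chromosome 7, and SEMA3F on chromosome 3 (GRCh38.p14). RefSeq promoter windows, covering 250 bases before the start site and a stretch after it, were matched by symbol to 5 of the 7 genes, with 9 windows in all. The bases upstream of the start are shown for NRP2 and SEMA3C, the members whose brightest probes had the largest differences between the arms at Day 11 (2.88 and 3.03 on the log2 scale), 5′ to 3′ in the direction of transcription. Capitals mark matches to GCCNNNGGC, the palindromic core that TFAP2 factors recognise.
NRP2, chr2:205682251-205682500, plus strand: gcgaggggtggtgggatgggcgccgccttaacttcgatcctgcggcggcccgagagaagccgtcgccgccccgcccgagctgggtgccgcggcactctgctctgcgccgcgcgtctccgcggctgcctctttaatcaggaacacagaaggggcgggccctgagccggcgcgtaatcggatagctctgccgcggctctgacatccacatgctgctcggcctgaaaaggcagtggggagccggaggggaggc
SEMA3C, chr7:80919052-80919301, minus strand: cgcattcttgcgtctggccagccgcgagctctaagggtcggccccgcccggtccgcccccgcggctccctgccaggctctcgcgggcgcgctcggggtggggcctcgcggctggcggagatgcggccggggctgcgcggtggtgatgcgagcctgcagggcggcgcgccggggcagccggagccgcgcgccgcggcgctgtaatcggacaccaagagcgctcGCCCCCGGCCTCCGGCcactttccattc
The SEMA3C window held 2 overlapping matches, starting at positions 223 and 230 from its 5′ end. The NRP2 window held none, nor did a second SEMA3C window at chr7:80922340-80922639, which had a GC content of 36% against 75.7% in the first and 70% in NRP2. Each motif was searched on both strands of the whole windows, and GCCNNNGGC was present in 23.2% of all 35116 windows. GGCGCC, a GC-rich element bound by BMP-regulated SMADs and present in 19.2% of windows, matched once in NRP2, at position 19, and in neither SEMA3C window. TAATCC, the core of OTX and PITX sites present in 6.36% of windows, matched in neither gene's windows. A match describes the letters in the window, not a bound site.

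The members' values below are log2 intensities after background correction and quantile normalization, and are comparable between arrays for one probe but not between probes. Over the 30 arrays 34.0% to 37.7% of probes were detected, the median probe rested on 37 to 40 beads, and the median SD between replicates was 0.136. In both arms part of the genes at Day 9 lay away from the average of Days 7 and 11, and no other day was measured in this way. The Day 9 mean deviated from the average of Days 7 and 11 by more than 0.5 in 21.3% of genes in NSB and in 19.2% in PIP, and these deviations correlated at Pearson's r = 0.86 across genes, which are not independent replicates. Results that rest on Day 9 are therefore given beside Days 7 and 11. At Day 11, 6 of 6 tested markers of non-neural ectoderm and placode were higher in PIP than in NSB, and 3 of 5 anterior neural markers were lower. Of all genes, 25.5% passed in that comparison. All 5 anterior neural markers were still detected on every PIP array of Day 11. All 5 were called higher than at Day 3 in both arms, where 66% of all genes passed in NSB and 62.4% in PIP. GIPC1 and PAK1, which belonged to the lists used below, were not analysed here. In bulk RNA, fewer cells of a type and less RNA per cell cannot be told apart.

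NRP2 rose at the start of induction, was then lower in PIP than in NSB at Days 5 and 7, and was higher in PIP by Day 11. Its brightest probe (ILMN_1910180) read 5.50, 4.88 and 4.93 on the Day 1 arrays, where it was detected on 1 of 3, and 7.35, 7.30 and 7.26 at Day 3. The rise at the start of induction was 2.20 ± 0.13 on the log2 scale (SE, limma, adjusted p = 3.18e-14), or 4.59-fold against a Day 1 mean that 2 of 3 arrays read as not detected, and the 2 groups did not overlap. The other 2 probes of the gene were detected on all arrays of both days and gave 2.76-fold (ILMN_1787190) and 2.69-fold (ILMN_1682309).

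In NSB the same probe read 7.04, 6.99 and 6.90 at Day 5, 6.32, 5.92 and 6.01 at Day 7, 5.63, 5.29 and 5.60 at Day 9, and 4.86, 4.68 and 4.56 at Day 11. In PIP it read 5.80, 5.54 and 5.51 at Day 5, 4.96, 4.84 and 4.97 at Day 7, 6.96, 7.23 and 6.96 at Day 9, and 7.64, 7.59 and 7.52 at Day 11. The NSB mean was lower at each later day, with the probe not detected on any array at Day 11, whereas PIP was lowest at Day 7, when the probe was detected on 0 of 3 arrays, and highest at Day 11. On each of the 4 days the arrays of the 2 arms did not overlap.

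As a description, PIP was 1.36 ± 0.13 below NSB at Day 5 (a mean of 5.62 against 6.98, 2.56-fold) and 2.88 ± 0.13 above it at Day 11 (7.58 against 4.70, at least 5.01-fold, because NSB was not above background). These are the values that chose the gene. On the days that did not choose it, PIP was lower at Day 7 by 1.16 ± 0.13 (adjusted p = 1.44e-07, at least 1.83-fold) and higher at Day 9 by 1.54 ± 0.13 (adjusted p = 2.27e-10, 2.91-fold). The difference between the arms changed by 2.70 ± 0.18 from Day 7 to Day 9 (adjusted p = 4.76e-11). Within PIP the probe rose by 2.13 ± 0.13 from Day 7 to Day 9 (adjusted p = 1.85e-13, at least 3.58-fold), and within NSB it fell by 0.58 ± 0.13 (adjusted p = 0.000536). From Day 3 to Day 7 it fell in NSB by 1.22 ± 0.13 (adjusted p = 5.46e-09) and in PIP by 2.38 ± 0.13 (adjusted p = 4.46e-15, at least 4.26-fold).

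The annotation gives NRP2 3 probes, and they did not tell the same story at every stage. The annotation ties ILMN_1787190 and ILMN_1682309 to one RefSeq transcript and ILMN_1910180 to an mRNA outside RefSeq. All 3 rose from Day 1 to Day 3, by 1.46 ± 0.10 (adjusted p = 5.32e-13) and 1.43 ± 0.13 (adjusted p = 2.36e-10) for the other 2. All 3 were lower in PIP at Day 7, the other 2 by 0.38 ± 0.10 (adjusted p = 0.00951) and 0.64 ± 0.13 (adjusted p = 0.000717). The sign of PIP minus NSB also went the same way at Day 5, where ILMN_1787190 gave -0.91 and ILMN_1682309 gave -0.62, and at Day 11, where they gave 1.20 and 0.70.

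The probes parted at Day 9 and in how far PIP returned to its Day 3 level. At Day 9 ILMN_1787190 read 5.60, 5.96 and 5.71 in PIP against 5.71, 5.59 and 5.32 in NSB, a difference of 0.22 ± 0.10 (adjusted p = 0.125), and ILMN_1682309 gave -0.22 ± 0.13 (adjusted p = 0.262). The change of the arm difference from Day 7 to Day 9 was 0.59 ± 0.14 for ILMN_1787190 (adjusted p = 0.00763) and 0.43 ± 0.18 for ILMN_1682309 (adjusted p = 0.168). Both rose within PIP from Day 7 to Day 9, by 0.44 ± 0.10 (adjusted p = 0.000537) and 0.36 ± 0.13 (adjusted p = 0.0237). PIP Day 11 minus Day 3 was 0.28 for the brightest probe, -1.40 for ILMN_1787190 and -2.34 for ILMN_1682309, so only the brightest was back at or above its Day 3 mean. The probes can read different transcripts, and which ones was not tested.

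NRP1 peaked at Day 3 on its brightest probe, fell in both arms, and was higher in PIP than in NSB at Day 11. Its brightest probe (ILMN_1742547) read 7.37, 7.49 and 7.28 at Day 1 and 8.37, 8.33 and 8.35 at Day 3, its highest group. It rose by 0.97 ± 0.12 over that step (adjusted p = 8e-08, 1.96-fold), and fell from Day 3 to Day 7 in NSB by 2.05 ± 0.12 (adjusted p = 1.81e-14) and in PIP by 1.92 ± 0.12 (adjusted p = 7.87e-14). At Day 11 the NSB arrays read 5.61, 5.22 and 5.17, with 1 of 3 detected, and the PIP arrays 6.51, 6.50 and 6.67, all detected. The arms did not overlap at that day, as they had at Days 5 and 7.

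PIP was above NSB by 1.23 ± 0.12 at Day 11 (adjusted p = 3.19e-09, 2.34-fold), against -0.12 ± 0.12 at Day 5 (adjusted p = 0.596) and 0.13 ± 0.12 at Day 7 (adjusted p = 0.561). The change from Day 5 to Day 11 was 1.34 ± 0.17 (adjusted p = 7.59e-07). At Day 9 the difference of 0.36 ± 0.12 (adjusted p = 0.0321, 1.28-fold) passed the threshold but missed it when any of 4 single arrays was left out, with adjusted p from 0.0604 to 0.143. Against Day 3, NRP1 at Day 11 was lower in both arms, by 8.08-fold in NSB (-3.01 ± 0.12, adjusted p = 1.3e-18) and 3.45-fold in PIP (-1.79 ± 0.12, adjusted p = 2.09e-13). These 2 comparisons share the Day 3 arrays.

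The second NRP1 probe (ILMN_1699574) was also higher in PIP at Day 11, with another course before it. It was higher in PIP by 1.80 ± 0.12 at Day 11 (adjusted p = 2.77e-12, 3.48-fold) and by 0.51 ± 0.12 at Day 9 (adjusted p = 0.00289), and the change from Day 5 to Day 11 was 1.73 ± 0.17 (adjusted p = 1.82e-08). From Day 7 to Day 9 it rose by 1.17 ± 0.12 in NSB (adjusted p = 8.05e-09) and by 1.55 ± 0.12 in PIP (adjusted p = 4.46e-11), where ILMN_1742547 gave -0.34 ± 0.12 (adjusted p = 0.0184) and -0.11 ± 0.12 (adjusted p = 0.466). Its Day 9 level stood above the average of Days 7 and 11 by 1.41 in NSB and 0.96 in PIP, against 0.14 and -0.18 for ILMN_1742547. The part in this of the Day 9 deviation seen across genes was not tested. At PIP Day 11 it read 6.70, 6.97 and 7.03, against 6.98, 6.86 and 6.99 at Day 3, a difference of -0.04 ± 0.12 (adjusted p = 0.784).

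**Figure D1:**
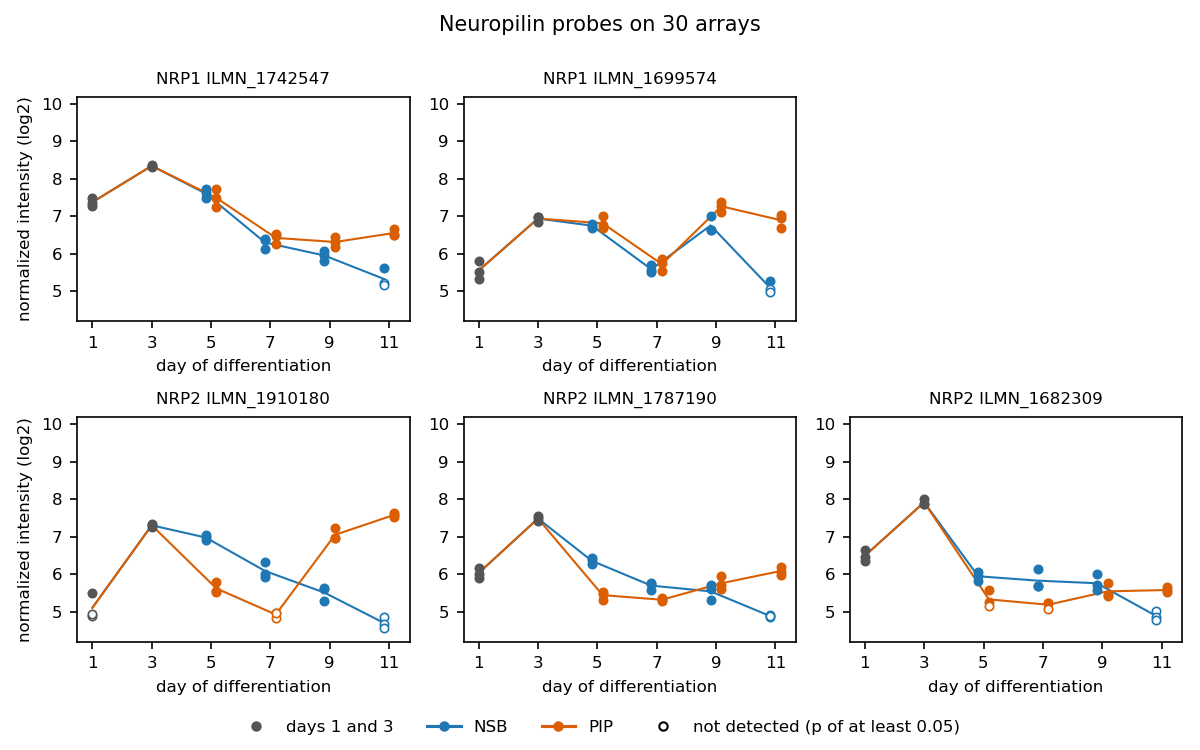
Normalized log2 intensity of the 5 neuropilin probes on each of the 30 arrays by day of differentiation, with lines through group means and open points for arrays where the probe was not detected. The 3 NRP2 probes all lie lower in PIP at Day 7 and higher at Day 11, and the 2 NRP1 probes separate between the arms at Day 11, when PIP is higher.

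Among the ligands SEMA3C, which guides neural crest and cardiac outflow cells in the mouse, was detected on 7 of 30 arrays, all of them PIP. The PIP arrays read 5.22, 5.01 and 4.91 at Day 7, with 1 of 3 detected, 6.70, 6.85 and 6.57 at Day 9, and 8.15, 8.07 and 8.27 at Day 11. The NSB arrays read 4.80, 4.81 and 4.91 at Day 9 and 5.05, 5.20 and 5.14 at Day 11, with no array detected on either day. At both days the arms were wholly apart, and at Days 1, 3 and 5 the probe was not detected on any array. SEMA3C therefore entered the test only through PIP arrays. The filter thus favoured its difference between the arms, its rise within PIP and its rise in PIP above Day 3.

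SEMA3C rose within PIP by 1.66 ± 0.09 from Day 7 to Day 9 (adjusted p = 2.6e-14, 3.16-fold against Day 7 arrays of which 1 of 3 was detected) and by Day 11 stood 3.24 ± 0.09 above Day 3 (adjusted p = 8.8e-22, at least 8.18-fold). It was higher in PIP than in NSB by 1.86 ± 0.09 at Day 9 (adjusted p = 2.48e-15, at least 2.78-fold) and by 3.03 ± 0.09 at Day 11 (adjusted p = 8.3e-20, at least 7.51-fold). The arm difference changed by 1.77 ± 0.13 from Day 7 to Day 9 (adjusted p = 2.29e-10) and by 2.99 ± 0.13 from Day 5 to Day 11 (adjusted p = 1.06e-15). In NSB the Day 7 to Day 9 difference was -0.11 ± 0.09 (adjusted p = 0.337) with no array detected at either day.

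SEMA3A, the classical repellent of sensory and motor axons, was detected on all 30 arrays and moved in the same directions in the 2 arms. It read 9.16, 9.37 and 9.35 at Day 1 and 7.36, 7.11 and 7.18 at Day 3, a fall of 4.23-fold (-2.08 ± 0.12, adjusted p = 1.1e-14). It then rose from Day 3 to Day 7, by 1.44 ± 0.12 in NSB (adjusted p = 2.66e-11) and 1.32 ± 0.12 in PIP (adjusted p = 1.71e-10). By Day 11 it stood 4.83-fold above Day 3 in NSB (2.27 ± 0.12, adjusted p = 5.6e-16) and 6.12-fold above it in PIP (2.61 ± 0.12, adjusted p = 2.63e-17). Its lowest group of the whole course was thus Day 3, the day on which NRP1 was highest on its brightest probe.

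The Day 11 arrays read 9.35, 9.63 and 9.48 in NSB and 9.81, 9.76 and 9.92 in PIP, and did not overlap. PIP was higher by 0.34 ± 0.12 (adjusted p = 0.0315, 1.27-fold), a call lost without any of 4 single arrays, with adjusted p from 0.0556 to 0.14. At Days 5, 7 and 9 the arm difference lay between -0.12 and 0.02, with overlapping arrays and adjusted p from 0.589 to 0.971.

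SEMA3F, a repellent ligand of NRP2, was also detected on all 30 arrays and was higher late in both arms. It read 6.57, 6.22 and 6.69 at Day 1 and 7.08, 7.00 and 7.12 at Day 3, a rise of 0.57 ± 0.12 (adjusted p = 0.000316, 1.49-fold). By Day 11 it stood above Day 3 by 0.92 ± 0.12 in NSB (adjusted p = 2.52e-07) and by 1.04 ± 0.12 in PIP (adjusted p = 2.87e-08). The NSB call was lost when medians of all probes were set equal in place of quantiles (0.34, adjusted p = 0.0524). With quantile normalization the arms rose at different times. PIP rose by 0.65 ± 0.12 from Day 3 to Day 7 (adjusted p = 6.68e-05). NSB gave -0.13 ± 0.12 over that step (adjusted p = 0.389) and rose by 0.51 ± 0.12 from Day 7 to Day 9 (adjusted p = 0.00125).

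At Day 7 the PIP arrays of SEMA3F read 7.72, 7.67 and 7.76 and the NSB arrays 7.23, 6.77 and 6.79. PIP was higher by 0.79 ± 0.12 (adjusted p = 3.68e-05, 1.72-fold), with no overlap. The difference was 0.41 ± 0.12 at Day 9 (adjusted p = 0.017), lost without either of 2 single arrays (adjusted p = 0.0849 and 0.0886), and 0.13 ± 0.12 at Day 11 (adjusted p = 0.506), where the arrays overlapped. With medians of all probes set equal, it was 0.32 at Day 9 (adjusted p = 0.181) and 0.50 at Day 11 (adjusted p = 0.0105), so the Day 11 reading depended on the scaling.

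SEMA3D and SEMA3E were at or near background. SEMA3D, a ligand with roles in axon and endothelial guidance, was detected on 6 of 30 arrays spread over 5 groups, its group means spanned 0.30, and it passed the test in none of the 13 comparisons. SEMA3E, the plexin D1 ligand, was detected on 3 of 30 arrays, 2 of PIP Day 7 and 1 of PIP Day 11. It passed the filter only through these PIP arrays, which favours a higher value in PIP, and without any of them it is no longer tested. Its PIP Day 7 arrays read 5.85, 5.34 and 5.11 and its NSB Day 7 arrays 4.86, 4.84 and 4.65, a difference of 0.65 ± 0.12 (adjusted p = 0.000203, at least 1.19-fold). The SEMA3E difference was 0.40 ± 0.12 at Day 9 (adjusted p = 0.0134) and 0.34 ± 0.12 at Day 11 (adjusted p = 0.0311), calls on a probe detected on 0 and 1 of the 3 PIP arrays. The Day 9 call was lost without either of 2 single arrays (adjusted p = 0.0688 and 0.0713) and the Day 11 call without any of 3 (adjusted p from 0.0517 to 0.115). The Day 7 call was lost when only the 2 groups were fitted (adjusted p = 0.0518).

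The class has other members on the array. SEMA3B, detected on all 30 arrays, gave arm differences between -0.27 and 0.33 with adjusted p from 0.161 to 0.9, and SEMA3G, detected on 2 of 30, did not pass the filter.

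**Figure D2:**
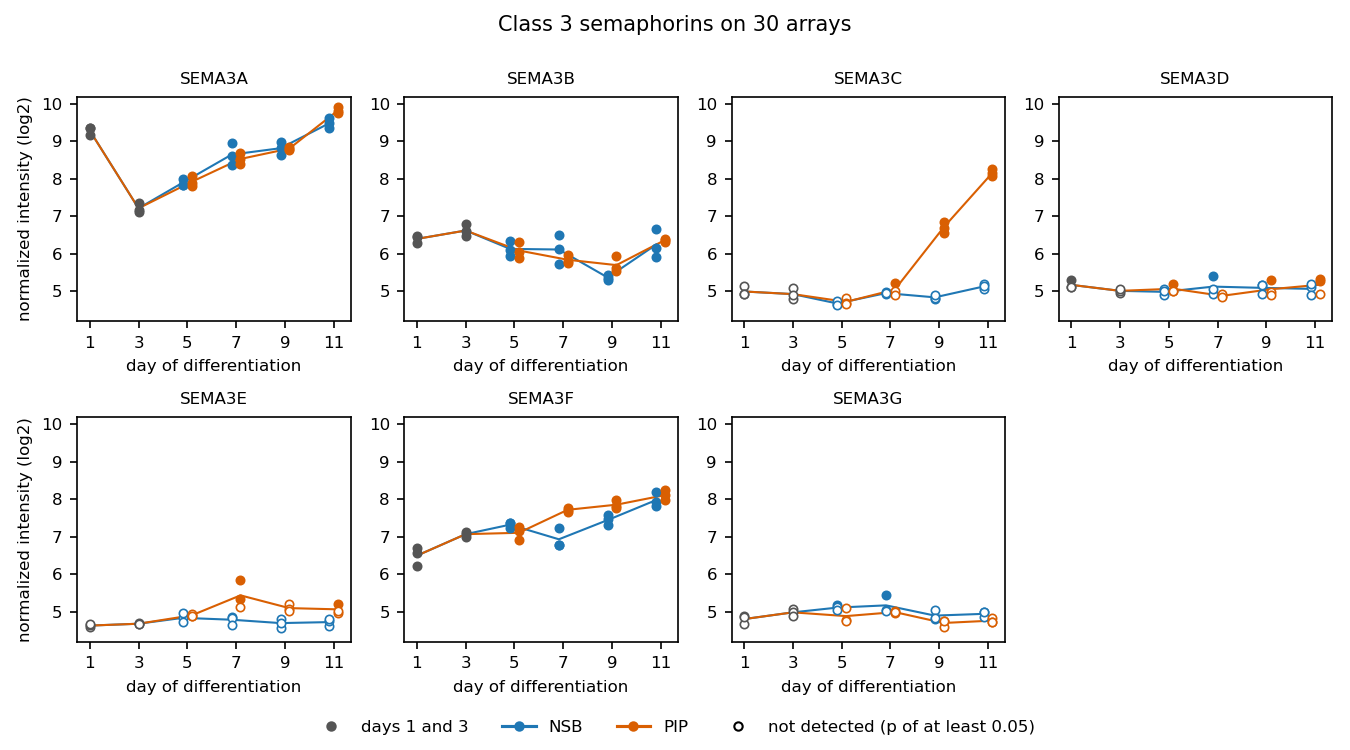
Normalized log2 intensity of the probes of 7 class 3 semaphorins on each of the 30 arrays by day of differentiation, with lines through group means and open points for arrays where the probe was not detected. SEMA3C leaves the background in PIP at Day 9 and reaches 8.07 to 8.27 at Day 11, SEMA3A is lowest at Day 3 in a course shared by both arms, and SEMA3D, SEMA3E and SEMA3G stay at or near background.

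Across the set, the counts of members past the threshold stand beside the share of all genes that passed it. From Day 1 to Day 3, 4 of the 7 passed, 3 higher and SEMA3A lower, against 54.4% of all genes. From Day 3 to Day 7, 3 of 7 passed in NSB (55.2% of all genes) and 5 of 7 in PIP (51.6%). From Day 7 to Day 9, 3 of 7 passed in NSB (47.8%) and 3 of 7 in PIP (46.4%). From Day 1 to Day 3 and over the NSB steps the members' counts were near those of all genes. The PIP counts are a description, because SEMA3C and SEMA3E reached the test through PIP arrays alone.

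For the comparisons that chose NRP2, the counts are of the other 6 members. From Day 3 to Day 11, 3 of 6 passed in NSB (66% of all genes) and 5 of 6 in PIP (62.4%). For the same reason, the count for PIP against Day 3 and the counts between the arms that include SEMA3C and SEMA3E are a description. Nothing is read from them against the share of all genes. Between the arms, 0 of 6 passed at Day 5, where 11.5% of all genes did, and 4 of 6 at Day 11, all 4 higher in PIP, where 25.5% did. At Day 7, 3 of all 7 passed (12.4%), with SEMA3E and SEMA3F higher and NRP2 lower in PIP, and at Day 9, 5 of 7 passed, all higher in PIP (20.8%). The change of the arm difference passed in 2 of 6 from Day 5 to Day 11 (19.9%), NRP1 and SEMA3C, and in 2 of 7 from Day 7 to Day 9 (6.41%), NRP2 and SEMA3C. Of the 4 that passed at Day 11, NRP1 and SEMA3C also passed with each single array left out, while SEMA3A and SEMA3E did not.

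**Figure D3:**
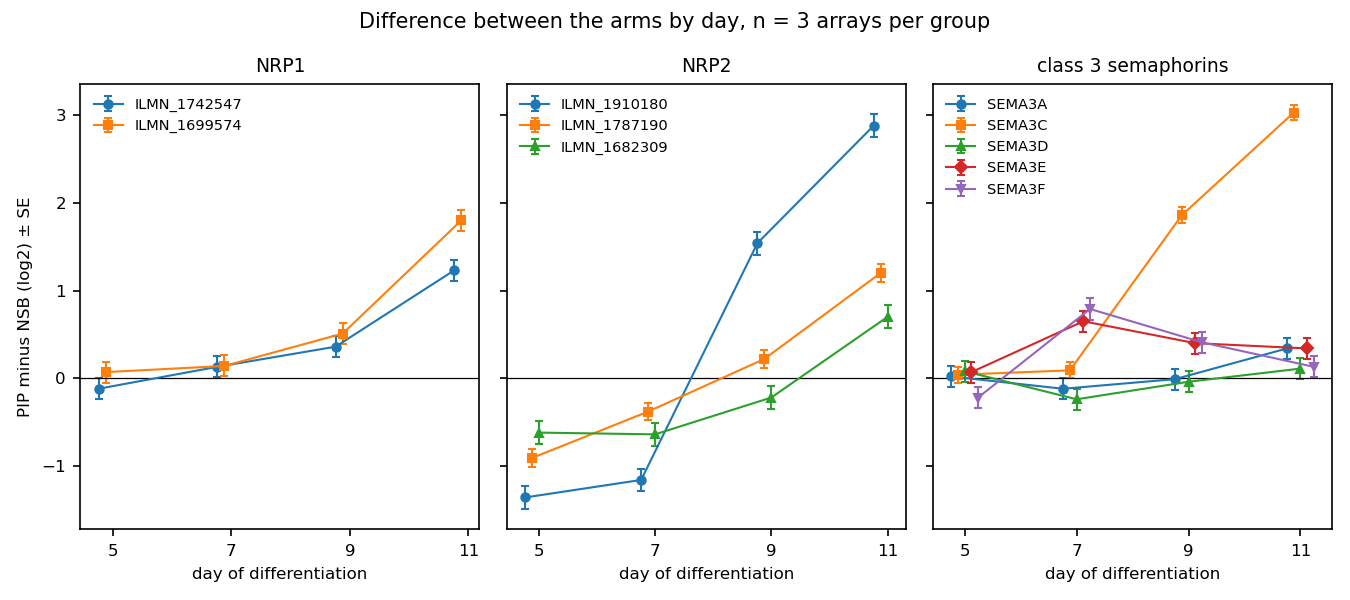
PIP minus NSB on the log2 scale with its SE from the fit, at Days 5, 7, 9 and 11, for each neuropilin probe and each class 3 semaphorin of the set, with 3 arrays in each group. NRP2 crosses zero between Day 7 and Day 11 on all 3 probes, SEMA3C reaches 1.86 at Day 9 and 3.03 at Day 11, and SEMA3F is furthest from zero at Day 7, at 0.79.

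Other cell types could carry these genes, so their markers were read on the same arrays, as sums of normalized intensity over each list. At Day 11 the 6 measured markers of non-neural ectoderm and placode summed to 6040 to 6780 in PIP and 682 to 865 in NSB, and GATA3 and ISL1 were not detected on any NSB array. The 5 trophoblast markers summed to 1140 to 1590 in PIP and 177 to 228 in NSB at Day 11, and to 1080 to 1290 against 229 to 235 at Day 9. On these days SEMA3C was detected on all 3 PIP arrays. At Day 11, 3 of the 5 were called higher in PIP and 0 lower (25.5% of all genes passed). At Day 9, 3 were called higher and 1 lower (20.8%). All 5 were detected on every PIP array of both days, while HAND1 was not detected on any NSB array of either day. The 6 neural crest markers summed to 875 to 1300 in PIP and 415 to 459 in NSB at Day 11. The part of these cells in the NRP1, NRP2 and SEMA3C differences was not tested.

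Endothelium is a well-known site of neuropilin expression. The 6 markers of endothelium and blood summed to 231 to 247 in PIP and 343 to 473 in NSB at Day 11. PECAM1, CDH5, TAL1 and GATA1 were detected on 0 of 3 PIP arrays, and CDH5, TAL1 and GATA1 also on 0 of 3 NSB arrays. The 5 mesenchyme markers summed to 356 to 449 in PIP and 662 to 670 in NSB, but they did not move together. In PIP 4 of the 5 were detected on every array and in NSB 2, with TWIST1 and PRRX1 detected on no NSB array. Of 4 tested, 1 was called higher in PIP and 1 lower, with a median difference of 0.13. The 5 neuron markers summed to 1190 to 1580 in PIP and 1510 to 1610 in NSB. The part of these cell types in the neuropilin differences was not tested.

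The other genes of the pathway were compared between the arms at Day 11, when 25.5% of all genes passed. Of 12 tested semaphorins of classes 4 to 7, SEMA6D was higher in PIP (0.67 ± 0.12, adjusted p = 4.83e-05) and 4 were lower, among them SEMA6C (-0.90 ± 0.12, adjusted p = 9.73e-07) and SEMA5B (-0.88 ± 0.11, adjusted p = 3.61e-07), and their median difference was -0.19 against 0 for all genes. Of 7 tested plexins, the family that includes the signalling co-receptors of neuropilins, 0 were higher and 3 were lower, with a median of -0.32. The 3 were PLXNB2 (-0.51 ± 0.09, adjusted p = 0.000103), PLXND1 (-0.44 ± 0.15, adjusted p = 0.0312) and PLXNA3 (-0.40 ± 0.14, adjusted p = 0.0377). Of the A-type plexins, PLXNA1 and PLXNA2 did not pass. The lower calls of plexins depended on the scaling: with median scaling on all probes, which moved the median of all genes by 0.28, 0 of the 7 plexins were called in either direction and their median was 0.07, below that of all genes. The other semaphorins turned too, from 1 higher and 4 lower to 3 higher and 2 lower, the 2 being SEMA6C and SEMA5B, with a median of 0.10.

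Among 6 tested VEGF ligands and receptors, VEGFC, a ligand that binds NRP2 and drives lymphatic growth, was higher in PIP (0.87 ± 0.13, adjusted p = 4.88e-06, 1.82-fold), and the other 5 did not pass. Among 16 tested cytoplasmic effectors, 1 was higher and 6 were lower, including RRAS (-0.69 ± 0.10, adjusted p = 5.36e-06), a small GTPase on which plexins act, and CRMP1 (-0.54 ± 0.10, adjusted p = 6.69e-05), a collapsin response mediator protein. With median scaling on all probes, 0 effectors were called lower and 3 higher, with a median of 0.14 against 0.28 for all genes. FURIN, the protease that cleaves class 3 semaphorins, was higher by 0.39 ± 0.12 (adjusted p = 0.0175), a call lost with median scaling on the probes detected on all arrays (adjusted p = 0.118). The adhesion co-receptor NRCAM gave -0.35 ± 0.10 (adjusted p = 0.00989), and 0.03 with median scaling on all probes.

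From Day 1 to Day 3, a step at which 54.4% of all genes passed, 8 of the 12 other semaphorins rose and 1 fell, with a median of 0.38 against 0.01 for all genes. With median scaling on the probes that all arrays detected, 5 rose and 1 fell, with a median of 0.15 against -0.17 for all genes. Among them SEMA5B rose 8.62-fold (3.11 ± 0.11, adjusted p = 3.09e-19). Of the 7 plexins 4 rose, led by PLXNB2 (0.66 ± 0.09, adjusted p = 5.98e-07), and 2 fell, among them PLXND1 (-0.54 ± 0.15, adjusted p = 0.00324). NRCAM rose by 2.00 ± 0.10 (adjusted p = 8.74e-16, at least 3.26-fold), and the VEGF receptor KDR fell by 0.70 ± 0.14 (adjusted p = 0.000155). Of the 16 effectors 8 rose and 4 fell. The falls depended on the scaling: with median scaling on all probes the median of all genes was 0.20 at this step. Under it 0 of the 6 VEGF ligands and receptors were called lower, KDR included, and 1 was called higher. Of the plexins 4 rose and 1 fell, and of the effectors 10 rose and 1 fell.

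**Figure D4:**
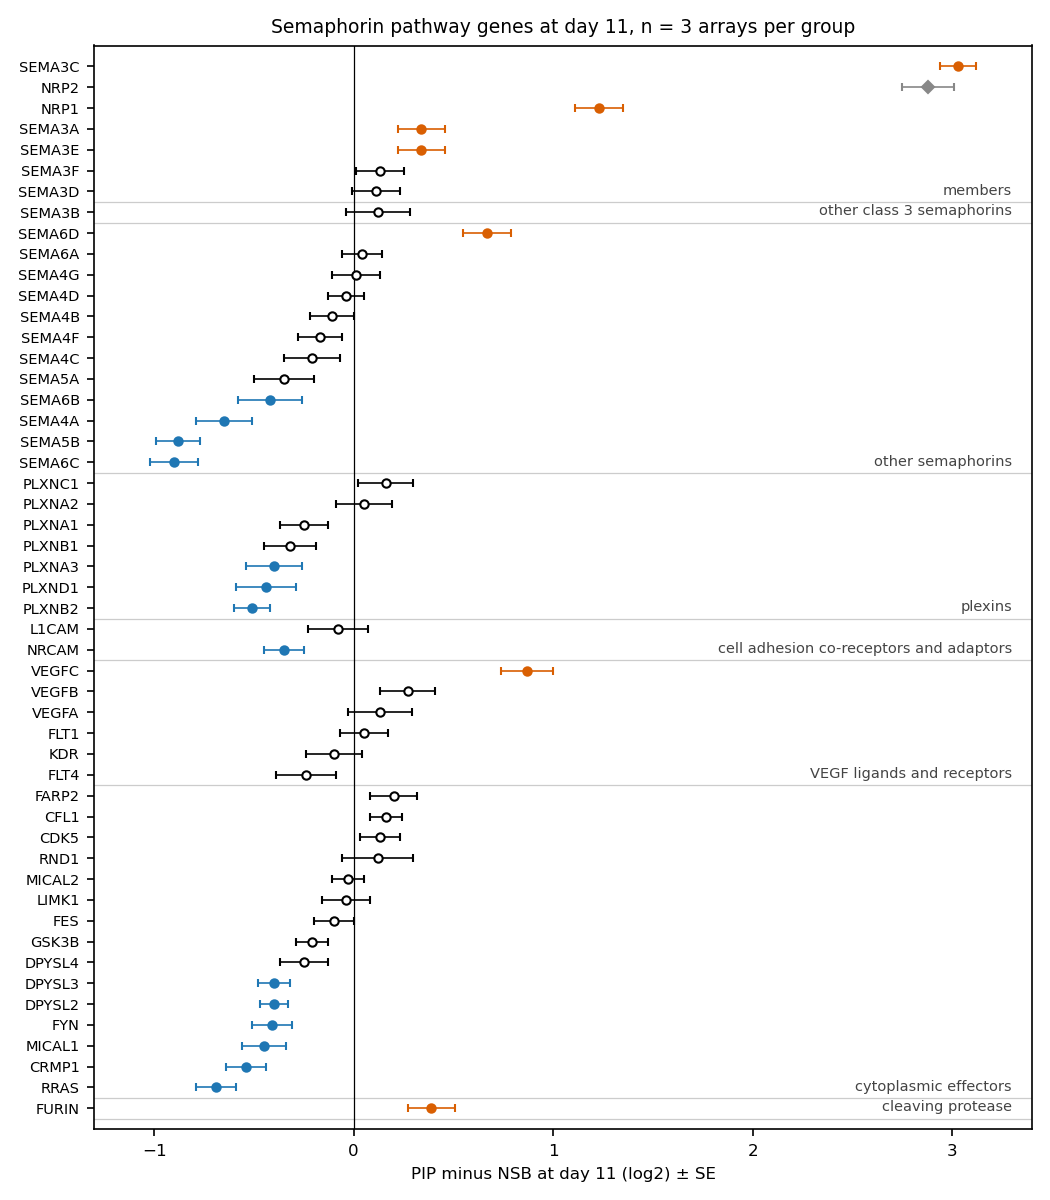
PIP minus NSB at Day 11 on the log2 scale with its SE, for the set (labelled members) and the tested genes of the pathway lists that are reported here, with 3 arrays in each group; orange marks genes called higher, blue genes called lower, open circles genes that did not pass, and the grey diamond NRP2, for which no test is given. SEMA3C, NRP2 and NRP1 lie at 3.03, 2.88 and 1.23, while 3 of 7 plexins and 4 of 12 other semaphorins are lower in PIP, which becomes 0 of 7 and 2 of 12 with median scaling on all probes.

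The genes most like each member were those with the highest Pearson correlation over the 10 group means, among 5959 genes whose means spanned at least 1 on the log2 scale. Each gene was read on its brightest probe, and the other NRP1 and NRP2 probes, whose courses differed, were not used here. For SEMA3C they were ALDH1A1 (r = 0.992), a retinoic acid synthesising enzyme, OTOGL (r = 0.988) and ST6GALNAC2 (r = 0.971). For NRP1 they were MYO1D (r = 0.982), HERC6 (r = 0.969) and PDLIM1 (r = 0.969), and for NRP2 CALB2 (r = 0.837), the calcium-binding protein calretinin, DOCK8 (r = 0.812) and SMOC2 (r = 0.799). For SEMA3A they were NACA2 (r = 0.964), DIDO1 (r = 0.937) and DMAC1 (r = 0.935), and for SEMA3F TCF25 (r = 0.944), AHNAK (r = 0.940) and ZNF763 (r = 0.937). For SEMA3E and SEMA3D, both near background with means spanning 0.81 and 0.30, they were UPK2 (r = 0.939), TRIM38 (r = 0.917) and STOM (r = 0.910), and VIM (r = 0.742), FOS (r = 0.726) and NDUFA5 (r = 0.702). The correlations describe 10 means that share arrays and time, and carry no test. Among these candidates, none was as close to the course of the brightest NRP2 probe as the best matches of SEMA3C and NRP1 were to theirs. The 10 means include those of Day 5 and Day 11, which chose NRP2 for its course. SEMA3C was detected on 7 of 30 arrays, all of them PIP, so its course rests on few groups above background. Nothing is therefore read from this ranking.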

How the data were processed

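Total RNA of H9 cells was measured on 30 Illumina bead arrays. The table used gives, per the file headers, a deposited mean bead intensity and detection p-value for every probe and array, with the number of beads and their standard error as the bead signal. Intensities were exported by the authors with GenomeStudio, per the submitters' processing notes, with no version given. The deposited processed values are an intensity on a linear scale, and how they were normalized is not given in the sources used here.

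Intensities were background-corrected with normexp on the detection p-values, given an offset of 16, normalized by quantiles and put on the log2 scale (limma 3.58.1 in R 4.3.3). Of 48701 probes, 23687 had 1 gene name in the platform annotation, 35 had several and 24979 none. Probes with a detection p under 0.05 on at least 3 arrays were kept, and a gene was read by its brightest probe. limma fitted the 10 group means over all 30 arrays (lmFit, eBayes), with Benjamini-Hochberg adjustment over 13488 genes in each of 13 comparisons, and genes were called at an adjusted p under 0.05. The fit was tested on simulated data. Where no array of the dimmer group detected the probe, the fold is a lower bound against the lowest signal of probes above background.

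The members and the gene lists were chosen with earlier results of these data known. The 7 members are all named, with up to 4 called genes of each list and comparison by size of change and the 3 genes most like each member. Alternatives changed the background correction, offset, normalization, filter, probe, samples in the fit, replicate block and source of values, and left out each array. The results of 2 listed genes are not reported here. The number of arrays limits the precision.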

Additional observations from a re-analysis of the deposited data

Results flagged for a closer look

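Of the 7 genes, 3 had an arm difference (PIP minus NSB) that changed between days by the interaction test of the limma fit, leaving out the change that chose NRP2. Of all genes, 19.9% passed for the change from Day 5 to Day 11 and 6.41% for that from Day 7 to Day 9. The count of 3 pools both changes, so nothing is read from it against these shares. For NRP1 the arm difference changed by 1.34 ± 0.17 from Day 5 to Day 11 (log2, adjusted p = 7.59e-07), and the second probe gave 1.73. For SEMA3C it changed by 2.99 ± 0.13 from Day 5 to Day 11 (adjusted p = 1.06e-15) and by 1.77 ± 0.13 from Day 7 to Day 9 (adjusted p = 2.29e-10). SEMA3C was detected on PIP arrays alone and entered the test through them, so the filter favoured these 2 changes. For NRP2 it changed by 2.70 ± 0.18 from Day 7 to Day 9 (adjusted p = 4.76e-11) on the brightest probe. On the other 2 it changed by 0.59 (adjusted p = 0.00763) and by 0.43, which did not pass (adjusted p = 0.168).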

How the results depend on the processing

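For the 7 members, 1605 values were recomputed under another setting. Of these, 1526 kept their side of the threshold without a counted reversal, 37 lost the call, 32 gained one and 10 reversed. A reversal was counted where the reported or the alternative value was called. The 1526 include 27 values that changed sign but were called neither in the report nor under the other setting. NRP1 at Day 11 (0.77 to 1.80 between the arms), SEMA3C at Day 9 (1.14 to 2.29) and Day 11 (2.19 to 3.14), NRP2 at Day 7 (-1.46 to -0.38) and SEMA3F at Day 7 (0.62 to 0.94) kept their calls under each setting run. Reversals came mostly from the probe: NRP1 from Day 7 to Day 9 was 0.41 in NSB and 0.72 in PIP with the mean of its probes and 1.17 and 1.55 with ILMN_1699574. NRP2 at PIP Day 11 against Day 3 was -1.15 with the mean of its probes, -2.34 with ILMN_1682309 and -1.40 with ILMN_1787190, and the arm difference at Day 9 was -0.22 with ILMN_1682309. With medians set equal over the probes that all arrays detected, SEMA3E at Day 11 was -0.03 between the arms and the SEMA3D change from Day 5 to Day 11 was -0.51; the cause was not tested. Median scaling on all probes shifted the median of all genes by -0.43 to 0.45 and called 1081 genes between the arms at Day 7, 5628 at Day 11 and 6248 for the change from Day 5 to Day 11, against 1678, 3442 and 2690; it moved the share of higher calls in every comparison, between the arms from 51.5% to 15.1% at Day 5, 52.3% to 81.9% at Day 7, 49.5% to 37.8% at Day 9 and 55.5% to 94.3% at Day 11 (34.6% with medians of the detected probes). Fitting only the groups compared left fewer samples and called 782 genes at Day 7 and 491 for the change from Day 7 to Day 9, against 1678 and 864. Leaving out single arrays gave 876 to 1172 genes at Day 5 (1554 with all, and 876 without PIP Day 5 replicate 1, 967 without NSB Day 5 replicate 3 and 1033 without NSB Day 5 replicate 2) and 642 to 1433 for the change from Day 7 to Day 9 (864 with all, and 1433 without NSB Day 7 replicate 1). Same-numbered replicates of different groups did not deviate together (mean correlation -0.00907, against 0.00477 for other pairs). With the replicate number as a block, which marks no known pairing, 3380 genes were called at Day 11 and 812 for the change from Day 7 to Day 9, and no count moved by over 1.5 times. Without the Day 9 arrays, a setting added after seeing the data, as were the other probes, 0 member calls changed. The chip as a block was not run, because the column names name no chips. Signal over background limits SEMA3C outside late PIP, SEMA3D, SEMA3E, and both neuropilins at NSB Day 11.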
